A study of Mus musculus with 15 samples.

Results

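Big and small liver tumour nodules taken from the same animal were compared in 3 mice. The 6 nodules, of 15 samples in the series, were chosen by the mouse number and the size word in their titles, and each mouse gave 1 paired difference, the big nodule minus the small nodule on the log2(FPKM + 1) scale. FPKM counts the sequenced fragments of a gene relative to transcript length and to the size of the library. The mice were C57BL/6J animals numbered 8, 15 and 25, injected intraperitoneally with diethylnitrosamine (DEN), a DNA-alkylating carcinogen, and carbon tetrachloride (CCl4), a solvent that kills pericentral hepatocytes. All 6 nodules share this treatment, and their tissue label is hepatocellular carcinoma (HCC). Normal livers of corn oil-injected mice, 3 samples, are given below as a reference level and enter no test. Of their titles, 2 name the same mouse, while the column headers carry a different number for each liver. Whether they come from 3 animals or fewer is therefore uncertain. The sources used here give neither the ages of the mice nor the diameters of the nodules. Each mouse contributed a single nodule of each size, so the spread between nodules of the same size within a liver was not measured.

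Chemically induced liver tumours arise as many separate nodules in the same organ, and each nodule can grow from its own transformed hepatocyte. As such tumours progress, hepatocytes tend to re-express fetal secreted proteins and to lose adult functions such as the metabolism of drugs and bile acids by cytochrome P450 enzymes and transporters. Comparing nodules within an animal holds the inherited genotype, the doses and the diet constant.

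All 6 nodules carried the transcripts of hepatocytes. The albumin gene Alb ran from 19491 to 26620 FPKM, and that of Hnf4a, a defining hepatocyte transcription factor, from 114.8 to 138.4 FPKM. The summed FPKM of the nodules ran from 331746 to 338793, and the number of reads behind a value is unknown. Across genes, the big and small nodules of a mouse correlated at 0.972, 0.968 and 0.974 in mice 8, 15 and 25 (Pearson, log2 levels, genes not being independent replicates). In mitochondrially encoded transcripts the big nodule of mouse 25 stood apart: they held 2.88% of its summed FPKM and between 6.93 and 8.98% in the other nodules. Some results below are given without mouse 25 as well.

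No gene passed the paired test. Of 10415 genes tested, 0 reached an adjusted p under 0.05 (0% of those tested; limma with mouse as a block, Benjamini-Hochberg adjustment), and 763 genes (7.33%) had an unadjusted p under 0.05, of which 246 were higher and 517 lower in big nodules. Without the pairing, 0 genes passed and 417 had an unadjusted p under 0.05. The smallest adjusted p of the paired test was 0.269, that of Slc36a1. The median absolute difference between the big and the small nodule of a mouse was 0.17, 0.23 and 0.21 in mice 8, 15 and 25. Between nodules of the same size in different mice it ran from 0.20 to 0.25, a range that includes the values for mice 15 and 25 and lies above that for mouse 8. Correlations of the paired differences across genes were low: 0.151 between mice 8 and 15, 0.062 between 8 and 25, and 0.085 between 15 and 25. The 3 pairs have no sample in common.

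With no gene called, the transcripts are described by whether their difference had the same sign in all 3 mice. Of the genes tested, 1031 (9.9%) were higher and 2170 (20.8%) were lower in the big nodule of every mouse. This tilt toward lower values depends on scaling: after quantile normalization the counts were 1611 and 1597. The median difference over all genes was -0.02 in mouse 8, -0.12 in mouse 15 and 0.00 in mouse 25, and quantile normalization moved that of mouse 15 to -0.01. At least a 2-fold difference in the same direction in every mouse was found for 5 genes: 4 higher (Afp, Cyp2b13, Ocstamp and Slc43a2, 0.0384% of those tested) and 1 lower (Slc36a1, 0.0096%). A difference of at least 2-fold in every mouse, but with the direction turning between mice, was found for 10 other genes.

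Among the 12 named transcripts that were higher in the big nodule of every mouse, Afp had the largest mean difference. It encodes alpha-fetoprotein, the fetal counterpart of albumin and the serum marker of HCC. Afp lay on chromosome 5 from 90490737 to 90508907 (mm10). Its level was 172.7, 149.8 and 90.6 FPKM in the big nodules of mice 8, 15 and 25 and 32.1, 21.4 and 35.6 FPKM in their small nodules. Every big nodule was above every small nodule, and the ratio within a mouse was 5.38, 7.01 and 2.54. Normal livers held 0.195 to 0.358 FPKM, so both sizes of nodule were far above liver. The group means were 138 ± 42.4 and 29.7 ± 7.43 FPKM (SD, n = 3 each). The mean paired difference was 2.16 (SE 0.285, limma unadjusted p = 0.00036, adjusted p = 0.672). Under the other processing settings it ran from 1.86 to 2.57. The 250 bases before the RefSeq start of Afp (GRCm38.p6, chr5:90490464-90490713, forward strand) are shown because the proximal promoter of this gene is a known binding region of hepatocyte factors. Capitals mark GTTAAT, the first part of the palindrome bound by HNF1 factors, and TATAAA, the letters of a TATA box. They lie 105 and 7 bases before the RefSeq start, and both strands were searched. The deposited gene starts further downstream, at 90490737, while the window ends at 90490713, so distances to that start are longer.
Afp: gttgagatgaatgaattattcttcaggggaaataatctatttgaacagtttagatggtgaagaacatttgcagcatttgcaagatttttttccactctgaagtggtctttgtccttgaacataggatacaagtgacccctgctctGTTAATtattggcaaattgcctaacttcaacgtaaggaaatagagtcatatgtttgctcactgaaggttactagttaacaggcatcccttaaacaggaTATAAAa
Of 32851 RefSeq promoter windows of the same length, 6.43% held GTTAAT and 12.4% held TATAAA on either strand.

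The other transcripts that were higher in every big nodule were of varied function. Cyp2b13, a P450 of female mouse liver, was at 13.1, 6.22 and 3.81 FPKM in the big nodules and 2.96, 2.300 and 0.982 FPKM in the small nodules of mice 8, 15 and 25. Its groups did not overlap, its mean difference was 1.41 (SE 0.175, adjusted p = 0.672, limma), and livers held at most 0.0492 FPKM. Ocstamp, a membrane protein known for the fusion of osteoclasts, was at 20.5, 36.2 and 12.5 FPKM against 6.45, 3.77 and 5.21 FPKM, again with no overlap. Psat1, an enzyme of serine synthesis, was at 10.3, 8.52 and 7.44 FPKM against 3.26, 2.51 and 4.44 FPKM, a mean difference of 1.16. The groups of Psat1 did not overlap, and livers lay between 0.0855 and 0.144 FPKM. Igsf8, a cell surface protein of the immunoglobulin superfamily, Tcf24, a basic helix-loop-helix factor, Tceal9 and Scand1 likewise had no overlap between groups, with mean differences of 0.73, 0.78, 0.58 and 1.00.

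For Cdkn2b, Ak4, Galnt6 and Bcl2l1, every mouse had the higher level in its big nodule but the groups overlapped. The 12 named transcripts were ordered by the smallest of their 3 differences, a choice that favours groups without overlap. Statements on overlap, here and elsewhere, describe single genes, and the share of all genes without overlap is not given. Cdkn2b, which encodes the cyclin-dependent kinase inhibitor p15Ink4b, was at 30.8, 18.8 and 35.4 FPKM in big nodules and 15.8, 3.76 and 21.9 FPKM in small ones; livers held at most 0.147 FPKM. The big nodule of mouse 15 was thus below the small nodule of mouse 25. Ak4, an adenylate kinase of mitochondria, was at 20.7, 2.89 and 14.4 FPKM against 1.89, 1.59 and 3.46 FPKM. Galnt6, an enzyme that starts O-linked glycosylation, had a mean difference of 0.89. Bcl2l1, which encodes the anti-apoptotic protein Bcl-xL, had one of 0.59, with mice between 0.555 and 0.655.

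**Figure D1:**
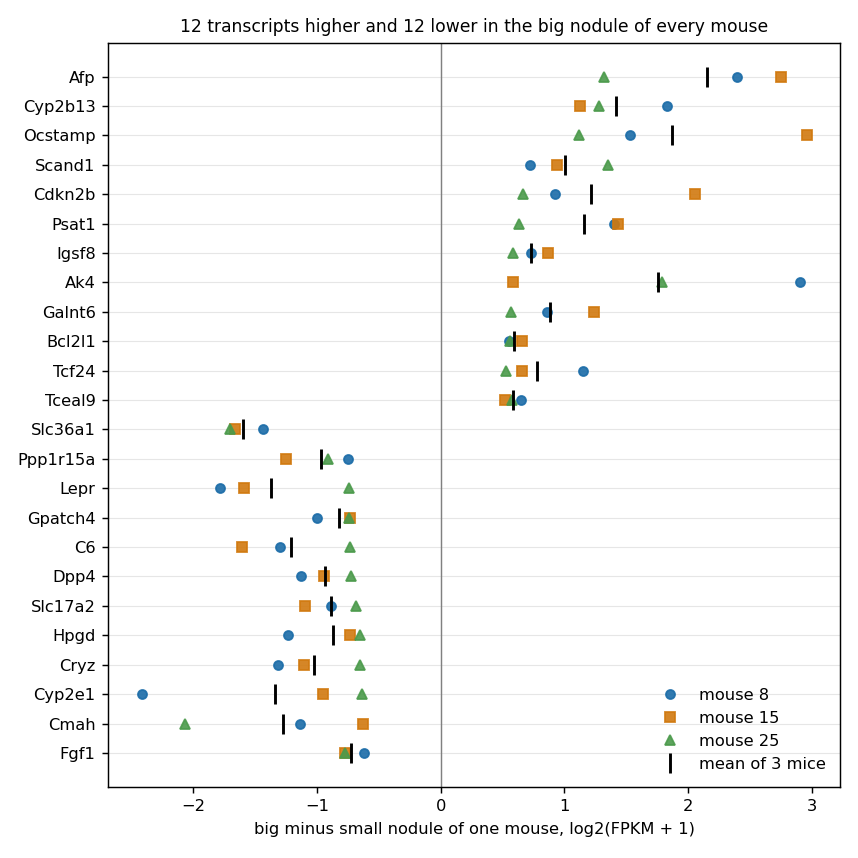
Big minus small nodule on the log2(FPKM + 1) scale (x axis) for 12 transcripts that were higher and 12 that were lower in the big nodule of every mouse; symbols are mice and bars are means of 3 mice. None passed the paired test; the symbols of Slc36a1 lie between -1.70 and -1.43 and those of Afp between 1.32 and 2.75.

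Among genes lower in big nodules, only Slc36a1 was at least 2-fold lower in every mouse. It encodes a proton-coupled amino acid transporter of lysosomes and the cell surface. The gene lay on chromosome 11 from 55204350 to 55236330 (mm10), and the level of Slc36a1 was 1.13, 1.49 and 1.34 FPKM in the big nodules of mice 8, 15 and 25 and 4.75, 6.89 and 6.62 FPKM in the small nodules. The groups did not overlap, and livers lay at 3.59 to 4.92 FPKM, near the small nodules. The mean difference was -1.60 (SE 0.129, limma unadjusted p = 2.59e-05, adjusted p = 0.269). The transcripts of the gene differed in direction: Slc36a1-203 was at 0.719, 1.18 and 0.826 FPKM in big nodules and 5.02, 7.18 and 6.81 FPKM in small ones, while Slc36a1-202, which starts further downstream, was at 1.501, 1.19 and 1.84 FPKM and 0.0148, 0.162 and 0.353 FPKM. Summed over transcripts the mean difference was -1.12.

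Ppp1r15a, the stress-induced subunit that directs protein phosphatase 1 to eIF2alpha, was at 5.03, 3.56 and 6.42 FPKM in big nodules and 9.12, 9.82 and 12.9 FPKM in small nodules of mice 8, 15 and 25. Its groups did not overlap, with a mean difference of -0.97 (SE 0.15). Lepr, the leptin receptor, was at 0.986, 3.54 and 1.402 FPKM against 5.82, 12.7 and 3.02 FPKM, and the groups overlapped. Lepr was low in livers, between 0.231 and 0.469 FPKM. Gpatch4, a nucleolar G-patch protein, was at 3.15, 5.86 and 4.51 FPKM against 7.27, 10.4 and 8.21 FPKM.

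The remaining 8 transcripts of this set included several with high levels in normal liver. C6, a component of the complement membrane attack complex, was at 15.4, 23.8 and 20.04 FPKM in big nodules, 39.5, 74.4 and 33.9 FPKM in small nodules and 71.6 to 104.8 FPKM in livers. Hpgd, which inactivates prostaglandins, was at 18.9, 30.5 and 21.4 FPKM against 45.7, 51.3 and 34.2 FPKM, with livers between 87.1 and 95.4 FPKM. Dpp4, a membrane peptidase, was at 5.43, 8.67 and 4.98 FPKM against 13.01, 17.6 and 8.89 FPKM, with livers between 17.98 and 22.8 FPKM. For these 3 transcripts the big nodules did not overlap with the small ones. Cyp2e1, the ethanol-metabolising P450 of pericentral hepatocytes, was at 22.6, 136.6 and 176.6 FPKM against 125.0, 264.6 and 275.6 FPKM, with livers between 1382 and 1610 FPKM. The mean difference of Cyp2e1 was -1.34 (SE 0.351) and -0.79 without mouse 8. Cryz, a quinone reductase, Slc17a2, a membrane transporter, Cmah, which hydroxylates sialic acid, and Fgf1, a fibroblast growth factor, had mean differences of -1.02, -0.89, -1.28 and -0.72, and that of Cmah was -0.88 without mouse 25. In such bulk samples, fewer cells that express a gene and less RNA per cell cannot be told apart.

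**Figure D2:**
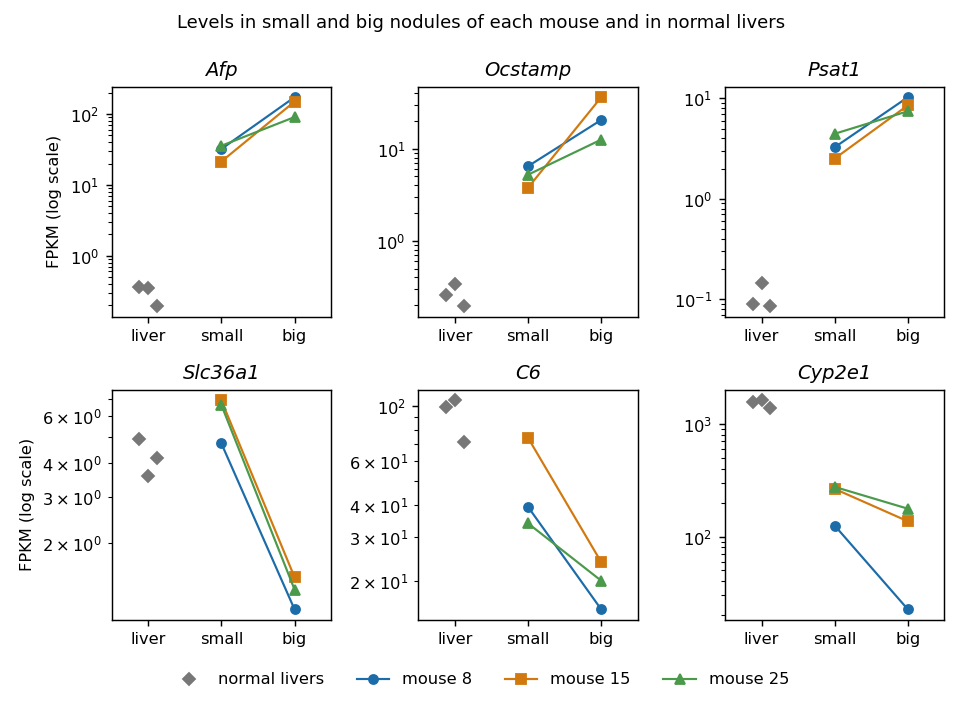
FPKM (log scale) of 6 transcripts in normal livers (diamonds) and in the small and big nodule of each mouse, joined by a line. Afp, Ocstamp and Psat1 were higher in all 3 big nodules and Slc36a1, C6 and Cyp2e1 lower; C6 and Cyp2e1 were highest in livers, apart from the small nodule of mouse 15 for C6, which lay at 74.4 FPKM beside a lowest liver of 71.6.

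Other oncofetal and HCC markers were followed as a list of which 16 were tested. Of these, 5 were higher in the big nodule of every mouse and 0 were lower, beside 9.9% and 20.8% of all genes. The 5 were Afp, Gpc3, Tspan8, Ly6d and Cpe. Gpc3, which encodes the proteoglycan glypican-3 of the fetal liver surface, was at 345.4, 137.1 and 175.8 FPKM in big nodules and 122.4, 33.1 and 148.1 FPKM in small nodules of mice 8, 15 and 25, and at 0.580 to 1.25 FPKM in livers. The groups of Gpc3 overlapped, and its mean difference was 1.25 (SE 0.338, adjusted p = 0.672, limma). Tspan8, a tetraspanin of epithelial tumours, was at 145.3, 229.2 and 223.2 FPKM against 99.3, 40.4 and 171.5 FPKM. Mouse 15 carried the largest differences of the list, with a median of 0.92 over the members against 0.01 in mouse 8 and 0.21 in mouse 25. Spp1, which encodes osteopontin, was at 49.7 FPKM in the big nodule of mouse 8 and between 208.7 and 379.9 FPKM in the other 5 nodules. Ctnnb1, which encodes beta-catenin, was at 74.2, 57.9 and 62.5 FPKM in big nodules and 45.8, 54.4 and 43.1 FPKM in small ones, with no overlap and a mean difference of 0.43 (SE 0.165).

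Cell-cycle transcripts were lower in big nodules than in small ones of mice 8 and 15 and near parity in mouse 25. Of 21 tested, 12 were lower in the big nodule of every mouse and 0 were higher, beside 20.8% and 9.9% of all genes. The median over the members was -0.50, -0.55 and -0.02 in mice 8, 15 and 25, beside -0.02, -0.12 and 0.00 over all genes. Mki67, the marker of dividing cells, was at 2.38, 3.73 and 2.53 FPKM in big nodules and 5.37, 7.24 and 3.28 FPKM in small ones, with livers between 0.299 and 0.551 FPKM. Its mean difference was -0.66 (SE 0.167, limma adjusted p = 0.672), and the groups overlapped. Ccnb2, a mitotic cyclin, was at 2.55, 5.17 and 4.89 FPKM against 5.99, 11.3 and 5.16 FPKM. Ccna2, a cyclin of DNA replication and mitosis, was at 2.62, 2.96 and 1.89 FPKM against 4.004, 6.55 and 2.46 FPKM. Plk1, a mitotic kinase, was at 1.47, 3.23 and 1.399 FPKM against 1.96, 5.82 and 2.22 FPKM. Top2a, Tpx2, Cdk1, Ccnb1, Kif11, Rrm2, Tyms and Pcna were also lower in every big nodule, with mean differences between -0.49 and -0.29.

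The other 9 members did not keep the same direction. Birc5, Cdc20 and Aurka, which act in mitosis, and the replication helicase genes Mcm5 and Mcm6 were lower in the big nodules of mice 8 and 15 and higher in that of mouse 25. The G1 cyclins were higher in the big nodules of mice 15 and 25: Ccne1 was at 2.67, 4.84 and 7.09 FPKM in big nodules against 3.05, 1.76 and 5.19 FPKM, and Ccnd1 at 10.7, 18.9 and 35.9 FPKM against 13.1, 12.4 and 30.3 FPKM. With mouse 25 left out 17 of the 21 members were lower in both remaining big nodules, beside 38.0% of all genes. With levels corrected for GC content 9 were lower in every big nodule, beside 15.1% of all genes so corrected.

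**Figure D3:**
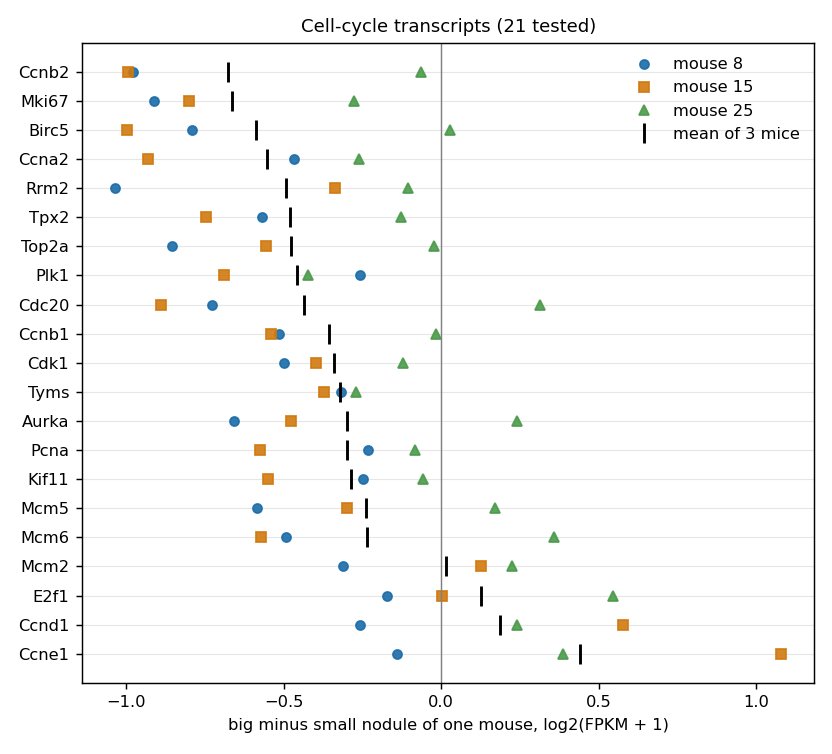
Big minus small nodule on the log2(FPKM + 1) scale (x axis) of the 21 cell-cycle transcripts tested, ordered by the mean of 3 mice (bars); symbols are mice. Mice 8 and 15 lie left of 0 for most members, and mouse 25 lies near 0.

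Promoters of genes of the mitotic phases are known for CCAAT boxes and for the cell cycle genes homology region, either TTTGAA or its variant with the letters TTTAAA. The 250 bases before the RefSeq start are shown for Ccnb2 (GRCm38.p6, chr9:70421555-70421804, reverse strand) and Cdk1 (chr10:69352913-69353162, reverse strand), since both were lower in every big nodule. Capitals mark these letters on either strand, so that a CCAAT box on the opposite strand reads as ATTGG here.
Ccnb2: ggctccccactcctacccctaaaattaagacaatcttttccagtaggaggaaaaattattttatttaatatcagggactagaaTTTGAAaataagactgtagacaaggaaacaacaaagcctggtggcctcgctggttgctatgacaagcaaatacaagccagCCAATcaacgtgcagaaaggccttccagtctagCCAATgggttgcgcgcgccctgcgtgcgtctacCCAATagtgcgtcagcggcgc
Cdk1: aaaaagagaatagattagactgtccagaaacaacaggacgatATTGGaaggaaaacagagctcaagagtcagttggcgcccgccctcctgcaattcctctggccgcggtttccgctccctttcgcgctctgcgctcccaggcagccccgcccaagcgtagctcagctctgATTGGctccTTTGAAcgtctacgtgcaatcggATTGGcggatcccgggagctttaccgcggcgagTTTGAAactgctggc
Ccnb2 holds CCAAT 87, 54 and 21 bases before its start, and Cdk1 holds it 208, 80 and 48 bases before its start. Of the 12 cell-cycle genes that were lower in every big nodule, 10 were found in the RefSeq table; 9 of them held CCAAT, 5 held TTTGAA and 2 held TTTAAA in this window. Of the 9 other members 8 were found, with 5, 2 and 3 matches. Among 32851 windows 33.8% held CCAAT, 16% TTTGAA and 12.1% TTTAAA. These shares are per window, whereas a gene with several windows was counted if any of them matched, so the measures are unlike.

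Lists of adult hepatocyte metabolism differed from each other. Drug metabolism, bile acid and gluconeogenesis transcripts had negative medians in all 3 mice, furthest from 0 in mouse 8. Other lists were near the shares of all genes, of which 20.8% were lower and 9.9% higher: fatty acid oxidation and ketogenesis had 4 of 22 lower and 0 higher, urea cycle and amino acid catabolism 5 of 20 lower and 1 higher, and periportal transcripts 2 of 15 lower and 1 higher. Of 20 drug-metabolising P450 transcripts 10 were lower and 3 higher in the big nodule of every mouse, beside 20.8% and 9.9% of all genes, with medians of -0.68, -0.56 and -0.16 in mice 8, 15 and 25. Cyp1a2, the P450 that oxidises caffeine, was at 11.02, 14.9 and 25.8 FPKM in big nodules and 72.6, 38.1 and 30.6 FPKM in small nodules. Cyp2c50 was at 1.84, 7.81 and 6.93 FPKM against 13.99, 15.3 and 9.24 FPKM, and Cyp2c54 at 0.639, 2.202 and 1.88 FPKM against 6.02, 4.37 and 3.01 FPKM. Cyp3a11, the main inducible P450 of the Cyp3a family, was at 117.4, 192.8 and 133.4 FPKM against 172.2, 360.4 and 166.4 FPKM. The 3 that were higher were Cyp2a4, Cyp2d26 and Cyp2b9, a P450 of female liver, which was at 125.2, 124.2 and 123.8 FPKM against 98.4, 45.01 and 115.9 FPKM. The summed P450 level did not follow the count, and Cyp2a4 alone held 2061, 866.9 and 2169 FPKM of it in big nodules. The summed level was 4326, 3068 and 4627 FPKM in big nodules and 4302, 3267 and 3571 FPKM in small ones.

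Of 19 conjugating enzymes of phase II 11 were lower and 0 higher in every big nodule, beside the same 20.8% and 9.9%, with medians of -0.50, -0.30 and -0.13. Gstm1, a glutathione transferase, was at 894.3, 357.5 and 419.3 FPKM against 1533, 725.0 and 612.2 FPKM, a mean difference of -0.78 (SE 0.163). Gstm3 of the same cluster was at 137.9, 51.2 and 47.7 FPKM against 314.4, 164.5 and 59.9 FPKM. These genes are close copies, and reads shared between them may be split differently by the counting. Ugt2b1, which conjugates steroids and drugs with glucuronic acid, was at 41.8, 37.6 and 29.7 FPKM against 90.4, 46.4 and 52.1 FPKM. Summed over the list, the level was lower in all 3 big nodules (exact sign-flip permutation test, two-sided p = 0.25, the smallest that 3 pairs allow). Targets of NRF2, the factor that induces antioxidant genes, included both transferases and had 7 of 18 lower and 1 higher. Nqo1, a quinone reductase and classical NRF2 target, was at 8.73, 5.62 and 3.41 FPKM against 18.7, 8.21 and 12.6 FPKM, and Srxn1, which repairs peroxiredoxins, at 49.7, 33.1 and 41.5 FPKM against 78.5, 44.2 and 54.5 FPKM. Osgin1 was the one higher in every mouse, with a mean difference of 0.88.

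In bile acid synthesis and transport 11 of 20 transcripts were lower and 2 higher in every big nodule, beside 20.8% and 9.9% of all genes. With levels corrected for GC content the counts were 5 lower and 2 higher, beside 15.1% and 14.4% of all genes so corrected. Cyp7a1, which catalyses the first step from cholesterol to bile acids, was at 0.4001, 3.81 and 3.21 FPKM against 2.15, 12.4 and 3.69 FPKM. Slc10a1, the carrier that takes bile acids up from blood, was at 25.03, 63.6 and 27.6 FPKM against 60.97, 90.7 and 55.3 FPKM, and Abcb11, the pump that exports them into bile, at 35.4, 42.8 and 28.4 FPKM against 56.7, 50.96 and 37.9 FPKM. Akr1d1, a reductase of the same pathway, had a mean difference of -1.11 (SE 0.24), and Slco1b2, an uptake transporter, one of -1.18 (SE 0.393). Hsd3b7 was higher in every big nodule, with 37.4, 26.9 and 26.96 FPKM against 19.96, 14.3 and 24.9 FPKM.

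Of 14 transcripts of gluconeogenesis and glycogen 6 were lower and 0 higher in every big nodule, beside 20.8% and 9.9% of all genes; without mouse 25, 9 were lower in both remaining big nodules, beside 38.0% of all genes. Ppargc1a, a coactivator of gluconeogenesis, was at 1.71, 1.61 and 0.825 FPKM against 3.42, 3.11 and 1.67 FPKM, differences of -0.70, -0.65 and -0.55. Gbe1, the glycogen branching enzyme, and Pygl, the liver glycogen phosphorylase, had mean differences of -0.56 and -0.46. Igf1, the growth factor that liver secretes under growth hormone, was at 14.2, 22.1 and 9.42 FPKM against 24.4, 41.9 and 13.6 FPKM, a mean difference of -0.71 (SE 0.142). Its list of growth hormone and insulin-like growth factor genes had 4 of 12 lower and 2 higher, beside 20.8% and 9.9% of all genes. The summed level of that list was higher in every big nodule, with 2417, 1667 and 1901 FPKM against 1877, 1043 and 1842 FPKM (exact two-sided p = 0.25). Pericentral and Wnt-target transcripts split into 3 lower and 2 higher of 12, near the shares of all genes, with a median of -0.29 that turned to 0.09 without mouse 8. Their summed level was lower in every big nodule, with 166.8, 420.3 and 476.6 FPKM against 418.6, 562.2 and 580.1 FPKM (exact sign-flip permutation test, two-sided p = 0.25). Cyp2e1 alone held 22.6, 136.6 and 176.6 FPKM of this sum in big nodules and 125.0, 264.6 and 275.6 FPKM in small ones. Most of the fall of the sum in mice 15 and 25 was thus that of Cyp2e1. Glul, the pericentral glutamine synthetase, was lower in the big nodules of mice 8 and 15 (13.6 against 26.4 and 24.2 against 50.8 FPKM) and higher in that of mouse 25 (56.8 against 49.8 FPKM).

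Transcripts of the major urinary proteins, pheromone carriers made by male liver, showed how far the mice differed. Their medians were -2.42 in mouse 8, 0.08 in mouse 15 and -0.75 in mouse 25. Of 16 tested, 4 were lower and 0 higher in every big nodule, near the 20.8% and 9.9% of all genes. Mup20 was lower in every big nodule, with 1845, 2622 and 2681 FPKM against 6994, 5878 and 3575 FPKM. Mup7 was lower in mice 8 and 25 (31.1 against 214.4 and 347.4 against 607.4 FPKM) and slightly higher in mouse 15 (118.0 against 107.8 FPKM). Many genes of this family are near-identical copies, so the split of reads among those is uncertain. The summed level was 2287, 4119 and 5320 FPKM in big nodules and 9039, 7453 and 7768 FPKM in small ones (exact sign-flip permutation test, two-sided p = 0.25). Mup20 alone held 1845, 2622 and 2681 FPKM of this sum in big nodules and 6994, 5878 and 3575 FPKM in small ones. The sum therefore largely follows Mup20 and does not describe the family member by member. Interferon-response transcripts had 8 of 24 lower and 0 higher in every big nodule, beside 20.8% and 9.9% of all genes. After quantile normalization the count was 5 lower and 1 higher, beside 15.3% and 15.5% of all genes. Ifit2, an antiviral protein, was at 2.62, 3.88 and 2.67 FPKM against 8.26, 5.97 and 4.304 FPKM.

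**Figure D4:**
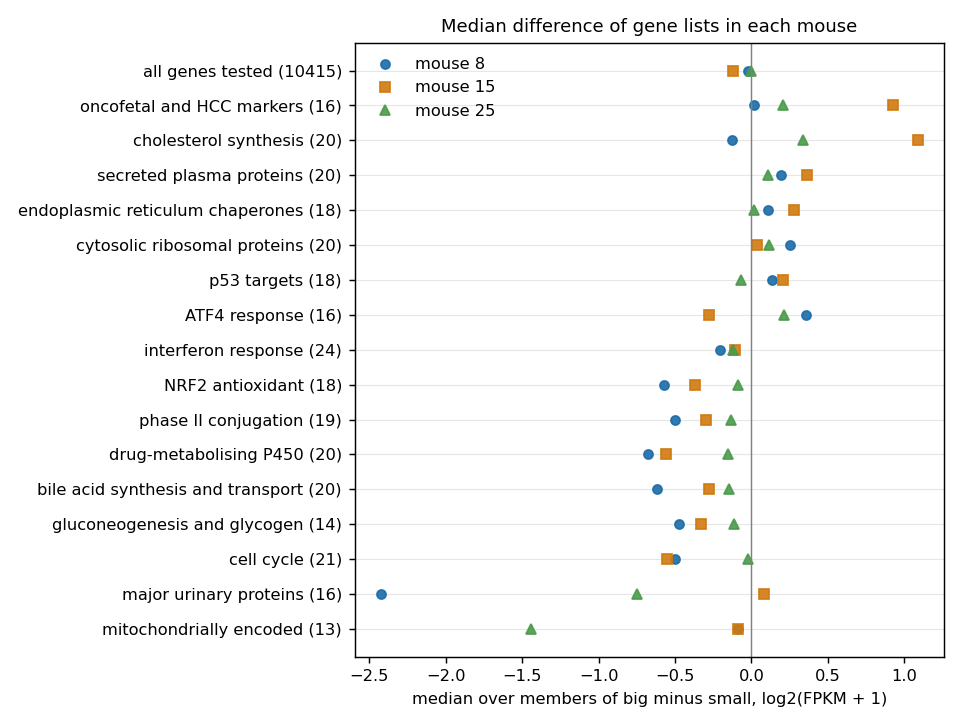
Median over the tested members (number in brackets) of the big minus small difference on the log2(FPKM + 1) scale, for 16 gene lists and all genes; symbols are mice. The P450, phase II, bile acid, gluconeogenesis and cell-cycle lists lie left of 0 in all 3 mice, cholesterol synthesis and oncofetal markers lie furthest right in mouse 15, and mitochondrially encoded transcripts lie at -1.44 in mouse 25.

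Lists of plasma proteins, chaperones and ribosomal proteins had small positive medians in all 3 mice, while 10 of 20, 11 of 18 and 12 of 20 of their members were mixed in sign. The acute phase list, also of secreted liver proteins, had 0 higher and 2 lower of 19. Of 20 secreted plasma proteins 9 were higher and 1 lower in the big nodule of every mouse, beside 9.9% and 20.8% of all genes. After quantile normalization the count was 6 higher, beside 15.5% of all genes. Ttr, which carries thyroid hormone and retinol, was at 2875, 2526 and 3714 FPKM in big nodules and 2181, 1881 and 2190.3 FPKM in small ones, with no overlap and a mean difference of 0.53 (SE 0.168). F2, which encodes prothrombin, was at 508.5, 477.6 and 557.8 FPKM against 409.4, 363.9 and 396.1 FPKM, again with no overlap. Alb itself was within 0.01 on the log2 scale in mouse 8 and higher in the big nodules of mice 15 and 25, with a mean difference of 0.19 (SE 0.187). Serpinc1, which encodes antithrombin, was the one lower in every mouse. Of 18 chaperones of the endoplasmic reticulum 7 were higher and 0 lower in every big nodule, beside 9.9% and 20.8% of all genes. With the GC correction 11 were higher, beside 14.4% of all genes under that correction. Without mouse 25, 12 were higher in both remaining big nodules, beside 17.4% of all genes. Sdf2l1 and Selenos, which act in the folding and removal of proteins there, had mean differences of 0.34 and 0.35. Hspa5, the most general of these chaperones, was at 424.6, 351.3 and 537.2 FPKM against 411.1, 274.6 and 221.3 FPKM, a mean difference of 0.56 (SE 0.258) that was 0.20 without mouse 25. Of 20 cytosolic ribosomal proteins 8 were higher and 0 lower in every big nodule, beside 9.9% and 20.8% of all genes. The medians of this list were 0.25, 0.03 and 0.11 in mice 8, 15 and 25. Among the 8 was Rps14, with 131.7, 108.4 and 152.5 FPKM against 103.1, 87.4 and 83.8 FPKM.

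Cholesterol synthesis differed mainly in mouse 15. The list's median was -0.13, 1.09 and 0.34 in mice 8, 15 and 25. In every big nodule 6 of 20 transcripts were higher and 0 lower, beside 9.9% and 20.8% of all genes. Lss, the cyclase that forms lanosterol, was at 16.5, 18.1 and 21.8 FPKM against 15.05, 4.89 and 16.99 FPKM. Fdps, the synthase that forms farnesyl diphosphate, was at 68.7, 66.8 and 122.3 FPKM against 62.2, 40.2 and 77.9 FPKM. The small nodule of mouse 15 was the lowest of the 6 for Lss.

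Growth arrest and stress genes varied gene by gene. Of 18 p53 targets 4 were higher and 0 lower in every big nodule, beside 9.9% and 20.8% of all genes. Phlda3, a p53-induced inhibitor of Akt, was at 7.42, 10.5 and 20.4 FPKM against 5.29, 4.94 and 11.9 FPKM, a mean difference of 0.70 (SE 0.152). Cdkn1a, which encodes p21, was at 63.9, 39.03 and 27.8 FPKM against 55.02, 35.8 and 34.7 FPKM, and Trp53 differed by less than its standard error (mean -0.064, SE 0.138). In the ATF4 response 5 of 16 were higher and 2 lower, beside the same shares. Trib3, a pseudokinase of this response, was at 38.9, 54.9 and 59.6 FPKM against 30.2, 28.1 and 36.6 FPKM, and Psph, the last enzyme of serine synthesis, at 7.54, 7.14 and 6.84 FPKM against 6.32, 3.59 and 3.998 FPKM; neither pair of groups overlapped. Phgdh, the first enzyme of that pathway, was higher in big nodules of mice 8 and 25 (7.97 against 2.63 and 9.57 against 4.42 FPKM) and lower in mouse 15 (4.305 against 5.71 FPKM). Among outputs of MAPK signalling 4 of 18 were higher and 1 lower in every big nodule, again beside 9.9% and 20.8% of all genes. Dusp5, a phosphatase that feeds back on ERK, was at 8.97, 8.97 and 15.5 FPKM against 5.58, 3.94 and 11.9 FPKM, and Spry2, another feedback inhibitor, had a mean difference of 0.44. Braf, a kinase of this pathway, had a mean difference of -0.27 (SE 0.136), and its activator Hras had 0.055 (SE 0.134).

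Markers of other cell types gave no shared direction in most lists. Summed over 18 listed macrophage and monocyte genes, the level was 401.9, 345.1 and 300.2 FPKM in big nodules and 352.3, 500.9 and 409.4 FPKM in small ones. Summed Kupffer cell markers were close in mice 8 (184.3 against 179.8 FPKM) and 15 (182.9 against 214.3 FPKM) and lower in the big nodule of mouse 25 (147.9 against 235.7 FPKM), where Marco was at 2.15 against 14.4 FPKM and Timd4 at 0.799 against 5.36 FPKM; the median difference of the 10 markers was -0.31, and 0.0053 without mouse 25. Summed stellate cell and fibrosis genes ran from 161.1 to 211.8 FPKM in big and from 174.0 to 195.3 FPKM in small nodules, and endothelial genes from 174.3 to 213.4 FPKM and from 180.9 to 191.7 FPKM. Summed cholangiocyte genes were 590.7, 915.8 and 1141 FPKM against 887.8, 861.9 and 1121 FPKM, of which Spp1 held 49.7 against 208.7 FPKM in mouse 8. T and NK cell genes summed to between 8.15 and 40.6 FPKM over the nodules. The adipocyte list was lower in all 3 big nodules (37.0, 107.9 and 167.0 against 98.8, 195.7 and 202.4 FPKM), of which Car3, also made by hepatocytes, held 11.6, 69.9 and 128.3 against 68.8, 157.2 and 175.8 FPKM. The part of these cell types in the results above was not tested. Cd274, the gene of the immune checkpoint protein PD-L1, lay between 1.09 and 1.67 FPKM in all nodules, with a mean difference of -0.075 (SE 0.139), and Col1a1 had one of 0.09 (SE 0.171).

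Several transcripts differed widely between single nodules or between mice. Vnn1, a pantetheinase, was at 0.243 FPKM in the big nodule of mouse 8 and between 25.7 and 37.3 FPKM in the other nodules. Kctd12, a partner of GABA-B receptors, was at 30.8 and 38.3 FPKM in the big nodules of mice 8 and 15 and at 9.91 and 8.67 FPKM in their small nodules, but listed at 0 in the big nodule of mouse 25, whose small nodule held 29.9 FPKM. Hist2h2aa1, a histone H2A gene, was at 0.0688 FPKM in the big nodule of mouse 8 and between 33.7 and 69.8 FPKM elsewhere, and its near-identical copies make its level uncertain. Hamp, which encodes the iron hormone hepcidin, turned direction: 248.3 against 53.4 FPKM in mouse 8, 126.1 against 476.4 FPKM in mouse 15 and 71.1 against 494.2 FPKM in mouse 25. Rdh16f1, a retinol dehydrogenase gene, was at 1.68, 51.7 and 12.6 FPKM against 15.3, 6.59 and 26.4 FPKM. Sult2a1, a sulfotransferase of female liver, was at 17.4, 4.07 and 15.1 FPKM against 1.17, 4.06 and 0.405 FPKM. Igf2, the fetal growth factor, was at 4.32 FPKM in the big nodule of mouse 8 and at most 0.00849 FPKM in the others, so it did not enter the test.

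The differences of mouse 25 followed the base composition of the transcripts. Across 10381 genes, the Spearman correlation of the paired difference with GC content was 0.437 in mouse 25 and 0.068 and 0.077 in mice 8 and 15. In 5 equal bins of genes, from lowest to highest GC, the median difference of mouse 25 went from -0.19 to 0.22. All 13 mitochondrially encoded transcripts were lower in its big nodule, with a median of -1.44. mt-Atp6, a subunit of ATP synthase, was at 158.8 FPKM there against 2753 FPKM in the small nodule, and mt-Co2, a subunit of cytochrome oxidase, at 1326 against 2190.3 FPKM, so the deficit was uneven. In mice 8 and 15 the median of these transcripts was -0.09 in each. With levels corrected for GC content, the mean differences of the 24 transcripts plotted by mouse kept their sign; the part of the mitochondrial share in them was not tested.

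**Figure D5:**
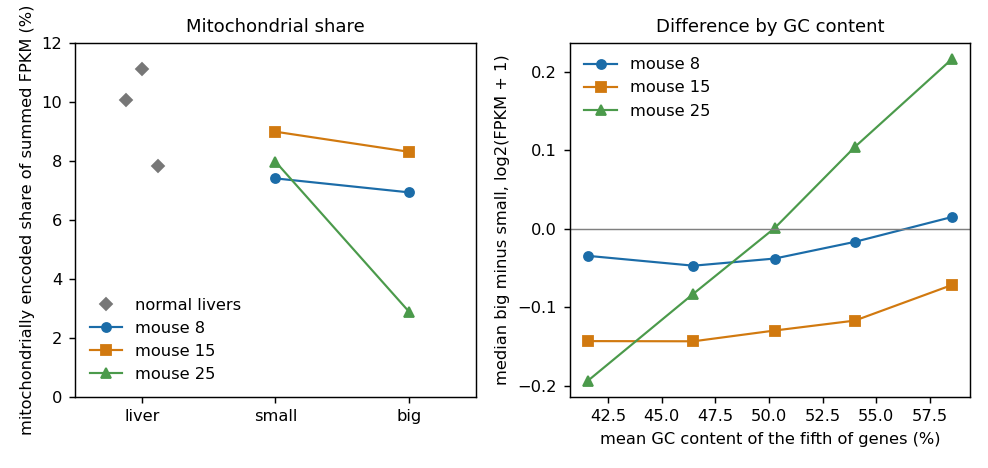
Left, share of summed FPKM held by mitochondrially encoded transcripts (%) in livers and in the small and big nodule of each mouse; right, median big minus small difference on the log2(FPKM + 1) scale in 5 equal bins of genes ordered by GC content (%). The big nodule of mouse 25 lies at 2.88% and its line rises from -0.19 to 0.22, while those of mice 8 and 15 change by less than 0.1.

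At the level of transcripts, 15535 were tested and 0 passed (0%; smallest adjusted p = 0.523, limma with mouse as a block); 821 had an unadjusted p under 0.05. Without the pairing 7 passed, among them Tufm-202, Cyp4a31-203, Enpp2-203, Mier1-201, Tnpo3-202 and Pcyt1a-202, which were higher in big nodules. At least 2-fold in the same direction in every mouse were 41 transcripts that were higher (0.264%) and 60 that were lower (0.386%). A further 294 were at least 2-fold apart in every mouse with the direction turning between mice, 74.4% of all 395 with such differences. Tufm-202, an isoform of a mitochondrial elongation factor, was at 10.2, 10.5 and 16.03 FPKM in big nodules and at most 0.0938 FPKM in small ones and 0.0984 FPKM in livers. Among livers Mier1-201 spanned 0 to 7.94 FPKM and Tnpo3-202 spanned 0.0444 to 14.5 FPKM, and isoforms of a gene share reads. Of the Cdkn2a locus, the neighbour of Cdkn2b, Cdkn2a-202 (RefSeq NM_009877.2), which starts at the upstream first exon of p19Arf, was at 6.200, 7.19 and 20.4 FPKM in big nodules and 2.46, 1.49 and 12.7 FPKM in small nodules. Cdkn2a-201 (RefSeq NM_001040654.1), the p16Ink4a transcript, was at 1.49, 1.12 and 5.33 FPKM against 1.43, 1.35 and 5.18 FPKM. These isoforms were named after their values were seen.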

How the data were processed

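Poly(A) RNA was read on an Illumina NovaSeq from stranded libraries, per the labels' protocols. Gene (13938) and transcript (29124) tables were deposited by the authors in FPKM; FastQC 0.11.7, cutadapt, HISAT2 2.1.0, StringTie 1.3.3 and mm10 are named in the submitters' processing notes. For the strand setting and annotation release, nothing is stated in the labels used here. No read counts were used, so depth is unknown and precision rests on 3 mice. Of the 3 livers, 2 columns could not be tied to a single sample and were used as livers only.

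Genes with at least 1 FPKM in at least 3 of the 6 nodules were tested on log2(FPKM + 1), so differences of low genes are understated. The test was that of limma 3.58.1 in R 4.3.3 (lmFit with mouse as a block, eBayes with a trend), two-sided, Benjamini-Hochberg adjusted over all genes, at 0.05; it was tested on simulated data. The block follows from the titles, which name the same mouse. Across genes, the deviations of its 2 nodules from their group means had correlations of 0.307, 0.252 and 0.325 in mice 8, 15 and 25. For nodules of different mice these ran from -0.249 to -0.0365. The deviations of a gene sum to 0 over the 3 nodules of a size. Positive values within mice therefore bring negative ones between mice, which add no separate evidence. List sums were compared with an exact sign-flip permutation test over 3 pairs.

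The members, the 50 gene lists and the tests were chosen with earlier results of these data known. The rule for named genes takes 12 per direction with the same sign in all 3 mice and at least 5 FPKM in the higher group, ordered by the smallest of the 3 differences, up to 4 members per list with the same sign, the 6 widest ranges and 15 fixed genes; other genes were named after their values were seen. GC content, known for 99.7% of genes tested, came from GENCODE M21 transcripts; the correction was a lowess (span 0.3) per nodule. Promoter sequences are those of RefSeq (GRCm38.p6). Thymi were not used here, and some results are not reported here.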

Additional observations from a re-analysis of the deposited data

Results flagged for a closer look

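In 4 of 55 measures checked over the 6 nodules, which share a tissue label, the extreme nodule stood apart from the others by more than Dixon's 95% critical value for the gap over the range. Chance flags about 1 in 20 groups of values that were not chosen for their spread. Vnn1 was among the measures because its range was one of the 6 widest, so its place here follows from that choice. The mitochondrially encoded share of summed FPKM was 2.88% in the big nodule of mouse 25, with the others between 6.93 and 8.98%. Slc17a2 was at 20.7 FPKM in the small nodule of mouse 15, with the others between 4.52 and 9.21 FPKM. Vnn1 was at 0.243 FPKM in the big nodule of mouse 8, with the others between 25.7 and 37.3 FPKM. Igf2 was at 4.32 FPKM in the big nodule of mouse 8, with the others at 0 to 0.00849 FPKM.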

How the results depend on the processing

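The number of genes called was 0 under every alternative listed for it except that, without mouse 8, 1 gene (Gm20431, difference 4.38, limma adjusted p = 0.0215) passed, so leaving out a mouse gave 0 to 1 calls. Without the replicate block, in place of the paired fit, 0 genes were called in either direction and the smallest adjusted p was 0.0929. The 4 genes at least 2-fold higher in every mouse became 8 with a pseudocount of 0.1 or 0.01, 2 with a mean of at least 5 FPKM required and 10 to 17 when a mouse was left out, where fewer pairs have to match. The 1 gene at least 2-fold lower became 4, 7 and 0 under those settings, 2 with summed transcripts and 9 to 39 without a mouse. The 1031 genes higher in every mouse became 646 with the stricter filter, 1611 after quantile normalization and 1815 to 2499 without a mouse; the 2170 lower became 1079 with the stricter filter and 2902 to 3957 without a mouse. GC correction with the block, added after the data were seen, gave 1503 and 1572.

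All reversals of sign were in 11 transcripts whose mice disagreed. With each mouse left out in turn, mean differences ran, for Kctd12 from -1.70 to 1.78, for Hist2h2aa1 from -2.68 to 0.71, for CAAA01147332.1 from -1.84 to 0.96, for Rdh16f1 from -1.81 to 0.89, for Vnn1 from -2.27 to 0.32, for Hamp from -2.34 to 0.14, for Spp1 from -1.07 to 0.11, for Col1a1 from -0.065 to 0.28, for Cd274 from -0.17 to 0.047, for Trp53 from -0.14 to 0.046, and for Hras from -0.027 to 0.14. Cd274 was at 0.018 with the GC correction, and Hras at -0.11 with summed transcripts. The cause was not tested. The unknown depth limits what can be said of transcripts under a few FPKM.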
